A study of Mus musculus with 6 samples.

Results

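The array carried 4450 probes that are named by a stretch of chromosome, such as chr5:14921737-14978834 with the suffix F or R, in place of a gene or transcript accession. These interval probes were placed in 4062 different intervals. The 1864 studied here were chosen by detection: a probe was kept if at least 1 treatment group had it well above background on each of its 3 arrays. They made up 41.9% of the interval probes and represented 1726 intervals, or 1521 loci once overlapping intervals of the same strand were merged. In all, 28370 of the 56605 non-control probes on the array met the same rule.

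Much of the mammalian genome outside protein-coding genes is transcribed. Long intergenic noncoding RNAs are transcripts from such places that are spliced, capped and polyadenylated much like messenger RNA but have no long open reading frame. They are known for low and cell-type-restricted expression, and the testis is known for transcribing an unusually large set of them. A few act in imprinting, in the architecture of nuclear bodies or in chromatin regulation, while most have no assigned role. The suffixes F and R were read as forward and reverse strand. Coordinates are those written in the probe names, and the file headers name the mouse build mm9. No annotation of that build was used here, so whether an interval overlaps a gene, exon or UTR was not analysed here, and "intergenic" describes the probe class and not a checked property. The names give no sequence, and none is printed.

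RNA came from TM4 cells, an established mouse line of testicular somatic cells used as a Sertoli cell model. Untreated cells (3 samples) and cells given 10 µM 4-nitrophenol (PNP) for 24 h (3 samples) were each hybridised to 1 single-colour array, and both groups are the same line, with no other agent given in the labels. PNP is a phenol of diesel exhaust and a breakdown product of some organophosphate insecticides. Whether the replicates were separate cultures is not given in the labels. The p-values therefore cover only the variation among these arrays, which may be technical, and the number of arrays limits the precision.

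Each slide held an array at position 1 and an array at position 2. Slide 1 held untreated replicates 1 and 2, slide 2 held untreated replicate 3 and PNP replicate 1, and slide 3 held PNP replicates 2 and 3, in order of position. Position 1 therefore held 2 untreated arrays and 1 PNP array, and position 2 held 1 untreated array and 2 PNP arrays. Of the 14 Sertoli marker genes listed, 11 were detected, and Amh, Cldn11 and Fshr were not. No marker was detected of 5 Leydig and 3 endothelial genes with a probe, against 4 of 4 for peritubular myoid cells, 2 of 6 for germ cells and 2 of 4 for macrophages. In bulk RNA, fewer cells of a type and less RNA per cell cannot be told apart.

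The detected share of interval probes, 41.9%, lay between that of probes for messenger RNA and those of other noncoding or predicted transcripts. The rule was met by 63.7% of 29937 RefSeq mRNA probes, 40.6% of 8925 Ensembl transcript probes, 29.3% of 2556 RefSeq noncoding probes, 25.8% of 5008 GenBank AK clone probes and 24.1% of 2776 RefSeq predicted probes. Of the interval probes outside the rule, 1744 were above background on no array and 842 on at least 1. With the looser rule of a signal significantly above background on all 3 arrays of a group, 2931 interval probes were detected, 65.9% of the class against 65.8% of all probes, where the stricter rule gave 41.9% against 50.1%. Detection chose these probes, so its counts are given as a description.

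Detection of the class varied between single arrays. Interval probes above background numbered 2235, 2026 and 1682 on untreated replicates 1, 2 and 3, and 1951, 2419 and 2208 on PNP replicates 1, 2 and 3. Untreated replicate 3 was the lowest array, with 37.8% of the interval probes, and PNP replicate 2 the highest, with 54.4%. Over all probes the shares on those arrays were 48.0% and 57.9%. The dimmest processed signal still called above background was 33.0 on untreated replicate 3, 25.4 on PNP replicate 1 and between 12.9 and 16.4 on the other arrays.

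**Figure D1:**
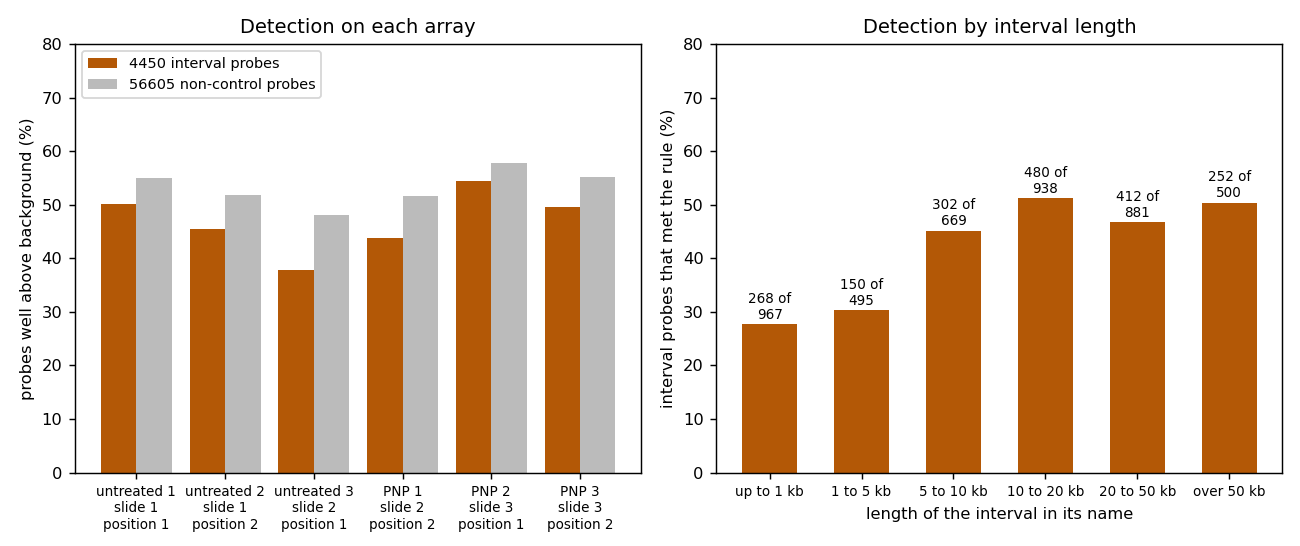
The left panel plots, for each array, the share (%) of the 4450 interval probes and of all 56605 non-control probes that were well above background, and the right panel plots the share (%) of interval probes that met the rule, by the length of the interval. The interval class was below the whole array on every array, lowest on untreated replicate 3 at 37.8%, and the share was 27.7% for intervals up to 1 kb and 51.2% at 10 to 20 kb.

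Most members were above background throughout: 1551 of 1864 on all 6 arrays. A further 269 met the rule through the PNP group only and 44 through the untreated group only. Of those 269, 256 were not above background on untreated replicate 3, and 204 missed it on that array alone. The part of that array in the uneven split was not tested. The 14 members above background on no untreated array and the 1 on no PNP array had to differ by the rule, so they support nothing about the treatment.

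The threshold itself was seen in the members closest to it. Just inside lay A_30_P01027002 (chr11:58136882-58143829, forward), whose untreated levels were -5.95, -6.40 and -4.13 and whose PNP levels were -3.73, -4.10 and -3.94. A level is the log2 processed signal minus the array's 75th percentile, so 0 is the signal that 75% of probes lie under. Just outside lay A_30_P01030381 (chr17:88225376-88238756, forward), above background on 2 arrays of each group, with untreated levels of -2.49, -2.41 and -4.09 and PNP levels of -4.27, -3.28 and -3.32. A single dim array in each group was enough to leave a probe out.

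Detection was set out by the length, chromosome and strand in the name. Of intervals up to 1 kb, 268 of 967 probes (27.7%) met the rule, and of those of 1 to 5 kb 150 of 495 (30.3%). The share was 45.1% at 5 to 10 kb, 51.2% at 10 to 20 kb, 46.8% at 20 to 50 kb and 50.4% above 50 kb. Members had a median interval length of 13226 bp, with a range of 66 to 508115 bp, against a median of 7955 bp for the interval probes left out. The shortest was A_30_P01029564 at chr15:74476126-74476191 and the longest A_30_P01027179 at chr13:28477490-28985604.

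By chromosome, the share ran from 32.6% on chromosome 16 (46 of 141) to 58.6% on chromosome 17 (146 of 249). Chromosome 6 followed with 49.8% (127 of 255). The strands were close, with 920 of 2227 forward probes (41.3%) and 944 of 2222 reverse probes (42.5%), and 1 further interval probe had no strand in its name.

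Many intervals were written on both strands with the same start and end, and detection on the strands went together. Of 832 such intervals, 280 (33.7%) were detected on both strands, 122 on the forward strand only, 151 on the reverse strand only and 279 on neither. The forward strand was detected in 65.0% of the intervals whose reverse strand was detected and in 30.4% of those whose reverse strand was not. An example is chr6:116092274-116144199, written on both strands, with the interval chr6:116123643-116124550 on the forward strand inside it. The reverse probe A_30_P01031738 had untreated levels of 6.96, 7.10 and 6.62 and PNP levels of 6.49, 6.69 and 6.80. Within the same span, forward probe A_30_P01021866 had untreated levels of 6.66, 6.72 and 6.29 and PNP levels of 6.32, 6.67 and 6.74. The groups overlapped on both probes. Of the 5 members in that span, 4 had a negative PNP difference, from -0.09 to -0.30, and A_30_P01021866 had 0.02. On 2 of the 4, A_30_P01023523 on the forward strand of the outer interval (-0.27 ± 0.20, SE) and A_30_P01026611 of the inner one (-0.30 ± 0.18, SE), every PNP array lay below every untreated array, and no member of the span passed the test.

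The members with the highest mean level were also described, without setting one probe's level against another's. Of the 8 highest, 5 lacked a value on at least 1 array because the scanner software had set an outlier mark on the spot, and across all members 21 did. A_30_P01018861 (chr2:152172745-152184745, reverse) kept a value on PNP replicate 2 only; with marked spots kept, its levels were 7.93, 8.13 and 7.14 untreated and 7.45, 7.45 and 8.26 with PNP. A_30_P01026759 (chr14:49314574-49358174, forward), with a value on all arrays, had untreated levels of 7.04, 7.42 and 6.54 and PNP levels of 6.73, 6.94 and 7.35. Its groups overlapped, with a PNP minus untreated difference of 0.01 ± 0.28 (SE; limma adjusted p = 0.998).

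The main comparison asked which interval probes differ between PNP-treated and untreated cells. No member passed it. Among the 1843 members with a value on every array, 0 had a limma adjusted p under 0.05, as had 0 of all 28204 probes tested (0% called). The smallest adjusted p of a member was 0.208. Calls appeared under 3 alternatives, over the whole array as well as among the members. With array weights, in which untreated replicate 1 had a weight of 9.39 and every other array 0.84 or less, 103 members were called (5.59%, against 5.33% of all probes). Within position 1 it was 57 (3.09%, against 2.27%), and within position 2 it was 10 (0.543%, against 0.55%). At an unadjusted p under 0.05, 200 members differed, 10.9% of those tested against 9.38% of all probes. The members' differences had a median of -0.04 on the log2 scale, with the middle 50% between -0.26 and 0.23, and the median over all probes was -0.06. Arrays were simulated with the spreads left after treatment and position were fitted. In these, the test recovered 46.2% of changes of 1 and 99.0% of changes of 2 on the log2 scale. The PNP fit had no position term, so its spreads also held position differences and these shares may be too high for it.

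By direction, the members' shares lay near or just under those of all probes upward and at or above them downward. At an unadjusted p under 0.05, 109 were higher with PNP (5.91%, against 6.28% of all probes) and 91 were lower (4.94%, against 3.1%). At least a 2-fold difference was seen upward in 42 members (2.28%, against 2.42%) and downward in 19 (1.03%, against 0.408%). Groups did not overlap upward in 115 (6.24%, against 7.03%) and downward in 153 (8.30%, against 8.24%). Of the 1864 members, 269 had met the detection rule through the PNP group only. Among tested members above background on all 6 arrays, 62 were higher (4.05%, against 5.14% of all such probes) and 82 lower (5.36%, against 3.44%), so the balance turned. The upward count also depends on scaling, among all probes too. With each array centred on its median it was 81 (4.40%, against 4.19% of all probes), with 174 downward (9.44%, against 7.58%). Quantile normalization gave 87 upward (4.72%, against 5.88%) and 128 downward (6.95%, against 4.22%). The percentile taken over probes above background on all arrays gave 136 upward (7.38%, against 7.74%) and 64 downward (3.47%, against 2.13%). Median centring moved the median of all probes from -0.06 to -0.16.

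Other transcript classes had other medians. For PNP minus untreated, RefSeq mRNA probes had a median of -0.10, RefSeq noncoding probes 0.02, Ensembl transcript probes 0.12 and AK clone probes 0.17. The medians also went with level. The members' median ran from 0.09 in the dimmest of 4 equal groups of members by level through 0.00 and -0.07 to -0.11 in the brightest, and other probes in the same level ranges had 0.16, 0.03, -0.03 and -0.11. The difference between classes was not tested. Of the long noncoding RNAs with a gene name listed for comparison, 7 of the 9 with a probe were detected and 0 passed the test, with differences between -0.36 and 1.01 and a median of 0.19.

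The treatment difference was also computed within each array position. Within position 1 the members' median PNP minus untreated difference was 0.04 and within position 2 it was -0.17, against -0.07 and -0.10 over all probes. On slide 2, the only slide with both groups, it was 0.10, where treatment and position cannot be told apart. With position as a block, 0 members were called and 287 had an unadjusted p under 0.05 (15.6%, against 14.1% of all probes).

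Among members higher with PNP, the smallest p belonged to A_30_P01031045 (chr5:14921737-14978834, forward). Its untreated levels were -4.41, -4.45 and -4.73 and its PNP levels -2.81, -3.21 and -3.34. The groups were well apart, and the difference was 1.41 ± 0.22 (SE, limma adjusted p = 0.208). This probe was above background on 1 of 3 untreated arrays. Within position 1, which held that array, the difference was 1.36, and the untreated array at position 2 was not above background.

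The steepest of the named differences was at A_30_P01033392 (chr8:91569369-91594119, reverse). Untreated levels were -0.41, -0.72 and 0.65, and PNP levels were 1.14, 2.66 and 2.74. All 3 PNP arrays lay above all 3 untreated arrays, while the array pair of slide 2 was the closest, at 0.65 untreated and 1.14 with PNP. The difference was 2.34 ± 0.49 (SE, limma adjusted p = 0.309), with 2.54 within position 1 and 2.66 within position 2. The probe was above background on all 6 arrays.

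A_30_P01026948 (chr2:155269145-155303251, reverse) had untreated levels of -3.55, -3.44 and -3.13 and PNP levels of -2.13, -1.58 and -2.38, a difference of 1.34 ± 0.26 (SE, limma adjusted p = 0.263). A_30_P01020935 (chr19:5798135-5800557, reverse) had untreated levels of -3.37, -3.01 and -3.60 and PNP levels of -2.26, -2.26 and -2.42. Its difference was 1.01 ± 0.22 (SE, limma adjusted p = 0.324), and the PNP arrays lay closer together than the untreated ones. A_30_P01024931 (chr17:3346621-3347209, forward) had PNP levels of -2.88, -2.91 and -2.87 against untreated levels of -4.42, -3.48 and -4.70. Both of its position 1 untreated arrays were the low ones and were not above background, so no difference is given within position 1, and it was 0.61 within position 2, where both groups were measured.

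The other members among the 10 smallest p on the higher side lay on chromosomes 5, 7, 9 and 17, with differences between 0.82 and 1.15. Their groups did not overlap. For A_30_P01030004 (chr9:13281056-13281599, forward), no untreated array was well above background, so its fold is a bound: the mean was -3.55 with PNP and -4.71 untreated, at least 1.52-fold higher (limma adjusted p = 0.331). For a bound, each array of the group without detection was raised to the lowest signal called above background there, unless the probe was brighter, and the group means were then compared. Over the 14 members above background on no untreated array, 13 gave a bound, of at least 1.14-fold to at least 1.85-fold higher.

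Among members lower with PNP, the smallest p was that of A_30_P01028281 (chr15:61919018-61935580, reverse). Its untreated levels were -3.61, -3.90 and -3.66, and its PNP levels were -5.14, -5.13 and -4.93. It was well above background on all untreated arrays and no PNP array, and the means of -3.73 and -5.07 gave a bound of at least 1.71-fold lower (limma adjusted p = 0.208). It was the only member with that pattern.

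A_30_P01030011 (chr3:41143423-41359623, reverse) was above background on 1 of 3 PNP arrays. Untreated levels were -3.17, -2.86 and -3.66 and PNP levels -4.20, -4.54 and -5.08, a difference of -1.38 ± 0.30 (SE, limma adjusted p = 0.324). A_30_P01027846 (chr16:29942664-29948289, forward), detected on all arrays, had untreated levels of -2.07, -1.99 and -1.87 and PNP levels of -3.01, -2.62 and -3.37. Its untreated arrays lay close together and its PNP arrays spread over a wider range, with a difference of -1.02 ± 0.24 (SE, limma adjusted p = 0.328).

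A_30_P01029441 (chr5:74340084-74346709, reverse) had untreated levels of -0.43, -0.71 and -0.86 and PNP levels of -1.33, -1.81 and -1.65. The difference was -0.93 ± 0.22 (SE, limma adjusted p = 0.328). The other members of this group lay on chromosomes 10, 11, 12, 14, 15 and 17, with differences from -0.84 to -1.16. Of these 10, A_30_P01027846, A_30_P01029441 and A_30_P01029329 on chromosome 12 were above background on all 6 arrays.

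**Figure D2:**
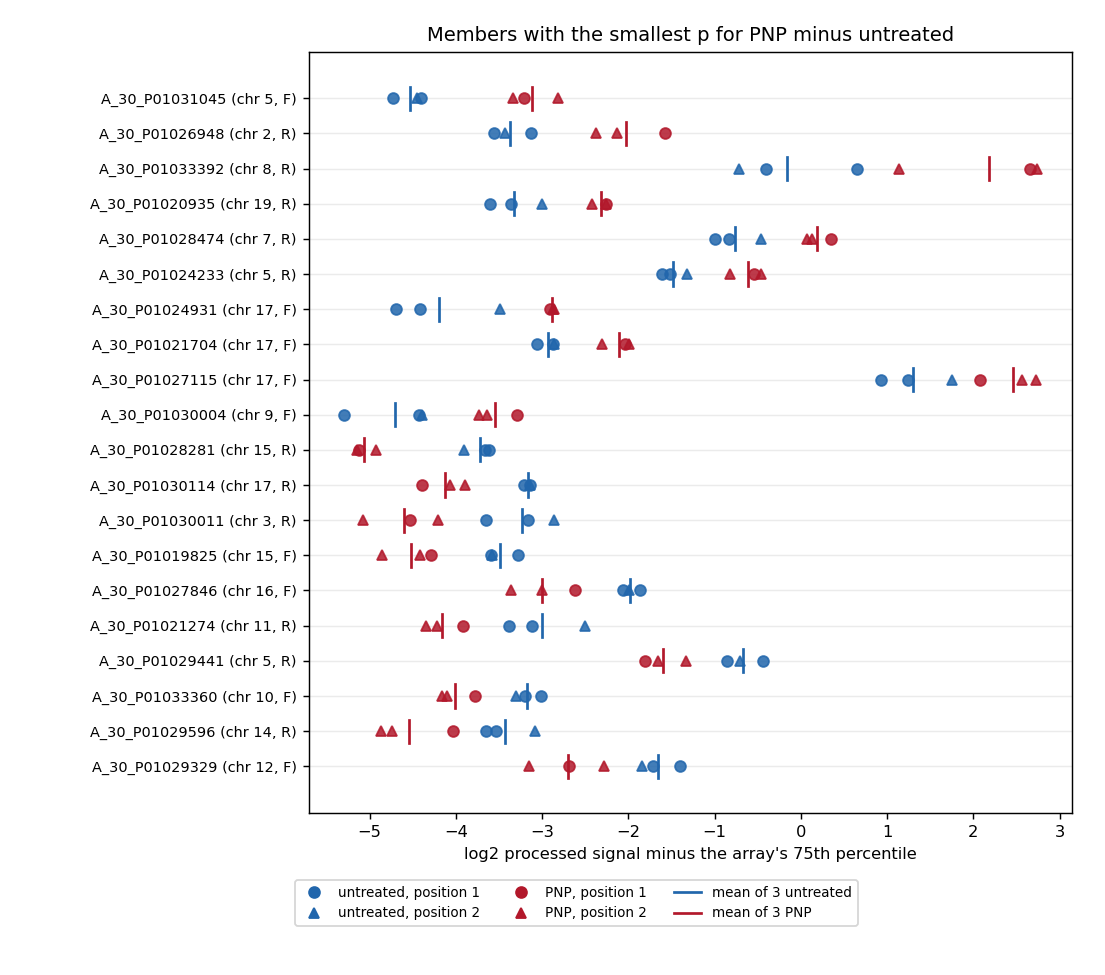
Each row is 1 of the 20 members with the smallest p for PNP minus untreated, and each point is 1 array's level (log2 processed signal minus the array's 75th percentile), blue for untreated and red for PNP, circles for position 1 and triangles for position 2, with a bar at each group's mean of 3 arrays. The groups did not overlap in any row, and no row passed the adjusted threshold: A_30_P01031045 at the top and A_30_P01028281 had the smallest adjusted p, 0.208.

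Position on the slide gave calls where the treatment did not. In a limma fit with treatment as a term, 58 of 1843 members (3.15%) differed between position 2 and position 1, close to the 3.47% of all probes, 980 of 28204. Of these, 26 in 25 intervals were higher at position 2 (1.41%, against 1.56% of all probes), by 0.84 to 2.68 on the log2 scale. A further 32 were lower (1.74%, against 1.92%), by 0.88 to 2.06. A 2-fold difference was reached by 45 of the 58 (2.44% of members tested, against 2.72% of all probes). All 58 had separate position groups and the same direction on all 3 slides. The calls were made on these same arrays, so this follows in large part from the selection and is no separate support. The members' median was 0.06, as over all probes.

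The count changed with each array left out. Without 1 array, 0 members were called when untreated replicate 1, untreated replicate 2 or PNP replicate 2 was left out, as were 0 of all probes. It was 10 without untreated replicate 3 (0.543%, against 0.971% of all probes), 6 without PNP replicate 3 (0.326%, against 0.5%) and 106 without PNP replicate 1 (5.75%, against 6.51%). With no filter on dim probes it was 0, of all probes too, and with array weights 402 (21.8%, against 24.2%). Within the untreated arrays alone 48 members were called (2.60%, against 2.49%), and within the PNP arrays alone 22 (1.19%, against 0.635%). Of the markers of other cell types, Cd68 of the macrophage list was also higher at position 2, by 1.16 (limma adjusted p = 0.0307), while Adgre1 and Ptprc of that list were not detected and Csf1r had 0.10. Its part in the interval probes' differences was not tested.

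The most marked higher member was A_30_P01032072 (chr8:18903599-18904143, forward). On slide 1 its levels were -3.53 at position 1 and -1.31 at position 2, on slide 2 -3.77 and -1.27, and on slide 3 -4.57 and -1.84. Each slide showed the same step, and the difference was 2.68 ± 0.25 (SE, limma adjusted p = 0.0138). Its PNP minus untreated difference was 0.31 ± 0.90.

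Neighbouring probes on chromosome 1 shared such a step on opposite strands. A_30_P01023528 (chr1:138570107-138632310, reverse) had position 1 levels of -3.77, -4.00 and -4.01 and position 2 levels of -1.44, -1.86 and -2.19, a difference of 2.22 ± 0.21 (SE, limma adjusted p = 0.0138). A_30_P01019634 (chr1:138567345-138578139, forward), whose interval overlaps it, had position 1 levels of -3.54, -3.98 and -3.67 and position 2 levels of -1.94, -2.20 and -2.19. Its difference was 1.65 ± 0.20 (SE, limma adjusted p = 0.0143). Both were above background on 2 of 3 arrays at position 1 and on all 3 at position 2.

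On the lower side, A_30_P01022763 (chr12:82457625-82476325, reverse) had nearly the same step on each slide. Its position 1 levels were 2.20, 2.26 and 2.18 and its position 2 levels 0.38, 0.40 and 0.35, in slide order. The arrays of a position lay close together across both treatments, and the difference was -1.83 ± 0.17 (SE, limma adjusted p = 0.0138). The probe was above background on all 6 arrays.

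A pair of reverse-strand intervals on chromosome 5 also stepped down together. A_30_P01019583 (chr5:23195569-23218551) had position 1 levels of 1.45, 1.59 and 2.47 and position 2 levels of 0.20, 0.53 and 0.08. A_30_P01021676 (chr5:23349978-23402028) had 1.20, 1.31 and 1.62 at position 1 and 0.03, 0.21 and -0.23 at position 2. In both, slide 3 with the 2 PNP arrays had the widest step, and the differences were -1.74 ± 0.25 and -1.42 ± 0.21 (SE, limma adjusted p = 0.0212 and 0.0225).

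**Figure D3:**
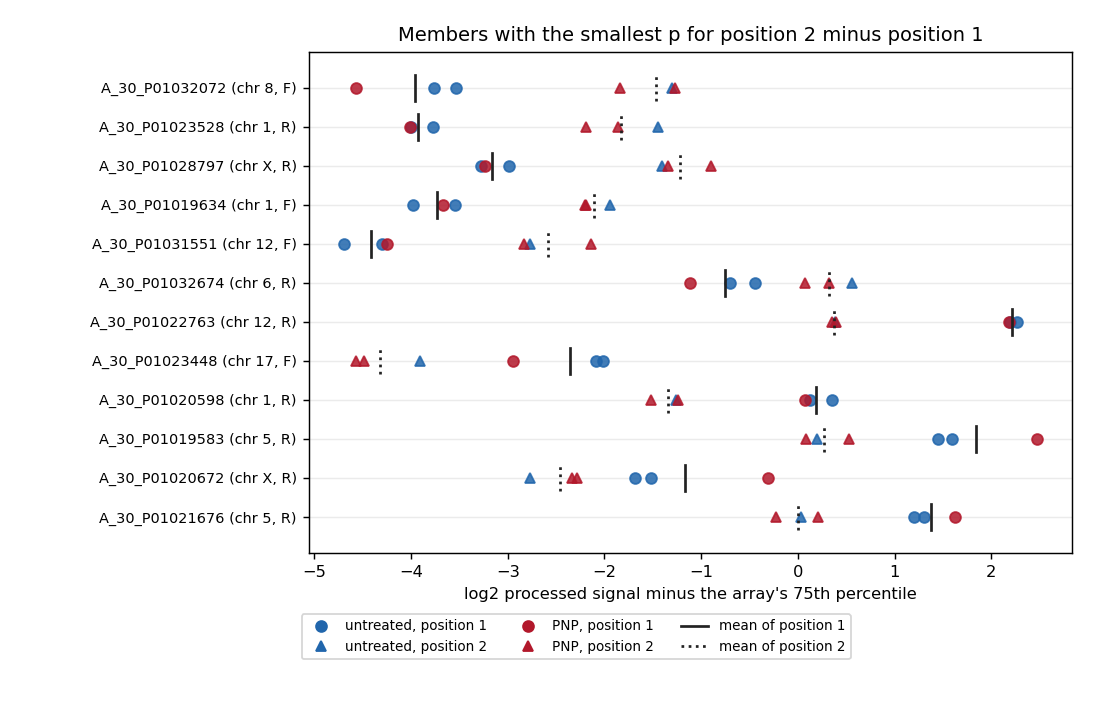
Each row is 1 of the 12 members with the smallest p for position 2 minus position 1, and each point is 1 array's level (log2 processed signal minus the array's 75th percentile), circles for position 1, triangles for position 2, blue for untreated and red for PNP, with a solid bar at the mean of position 1 and a dotted bar at that of position 2. Circles and triangles were apart in every row while blue and red were mixed, with the widest gap of 2.68 for A_30_P01032072.

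Other probes of the same interval and strand had the direction of the called ones. In 17 pairs of a called member and an uncalled tested member of the same interval, the direction was the same in 17. Over wider places, made by merging member intervals within 10000 bp on either strand, the direction was the same in 51 of 68 pairs of a called and an uncalled member that lay in different intervals or strands. In both counts a probe can stand in several pairs, so the pairs are not independent. At chr7:6108350-6119600, 1 called probe was paired with 4 uncalled ones. In 2 intervals a probe on each strand was called, both times in the same direction. At chr17:86560289-86565864, the forward probe A_30_P01022015 was 1.34 ± 0.21 higher at position 2 and the reverse probe A_30_P01027850 was 1.05 ± 0.17 higher (SE, limma adjusted p = 0.0271 and 0.0291). At chr1:92412246-92423471, the forward probe A_30_P01019652 was -1.20 ± 0.24 and the reverse probe A_30_P01032476 -1.08 ± 0.22 (SE, limma adjusted p = 0.0430 and 0.0458).

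Across probes of the same place, the position difference had a higher correlation than the treatment difference. Over 112 pairs of probes in 1 interval, the correlation was 0.63 (Spearman 0.52) for position and 0.10 (Spearman 0.14) for PNP. Over 275 pairs on opposite strands of 1 interval, it was 0.50 (Spearman 0.47) for position and 0.19 (Spearman 0.19) for PNP. The pairs share the same 6 arrays and their depth of signal, and the probes of an interval are not independent, so these are descriptions. The PNP difference had the same sign in 58.9% and 58.5% of those pairs, and the position difference in 69.6% and 65.1%.

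By strand, 38 of 935 reverse members (4.06%) and 20 of 908 forward members (2.20%) were called for position, against 3.47% of all probes. The share was 1.51% for intervals up to 1 kb and 3.36% at 1 to 5 kb. It was 4.32% at 5 to 10 kb, 4.48% at 10 to 20 kb, 2.44% at 20 to 50 kb and 2.01% above 50 kb. Chromosome 17 members had a median position difference of 0.26 against 0.06 over all members, with 6 of 144 called. Over the PNP comparison the 2 strands' medians were -0.03 forward and -0.05 reverse.

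**Figure D4:**
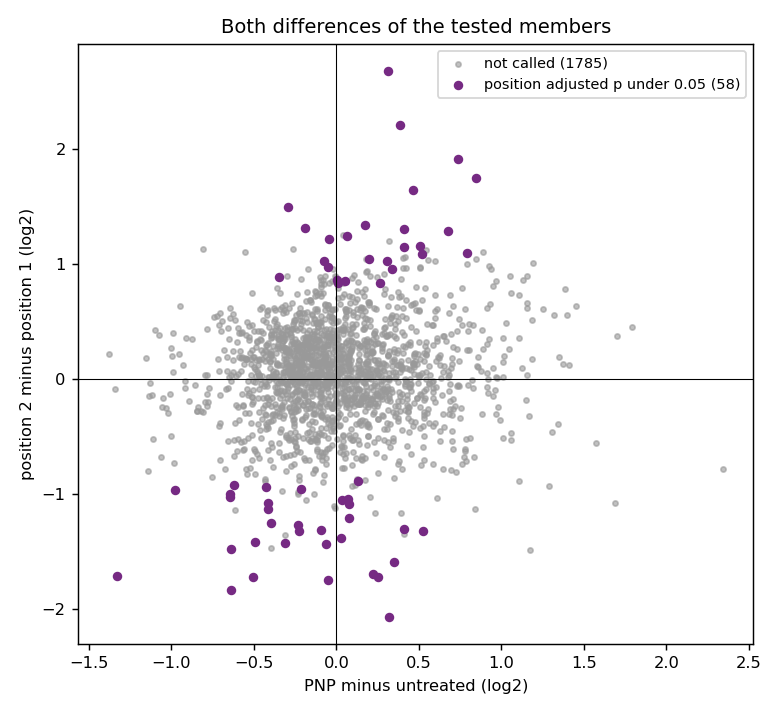
Each point is 1 of the 1843 tested members, plotted by its PNP minus untreated difference (log2, horizontal) and its position 2 minus position 1 difference (log2, vertical), purple where the position difference had an adjusted p under 0.05. The 58 purple points lie away from 0 along the vertical axis, at least 0.84 from it, and none stands out along the horizontal one by the adjusted threshold.

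No member passed the test of whether the treatment difference itself differed between positions. For this treatment by position interaction, 0 members and 0 of all probes had a limma adjusted p under 0.05, and the members' count was also 0 under 3 other scalings. The members' median interaction was -0.21 against -0.05 over all probes. It was -0.22 over AK clone probes, -0.19 over RefSeq predicted, -0.17 over RefSeq noncoding, -0.13 over Ensembl and -0.01 over RefSeq mRNA probes. From the dimmest to the brightest level group, members had -0.35, -0.31, -0.19 and -0.11. Other probes in the same level ranges had -0.20, -0.11, -0.02 and -0.01. These differences were not tested. At an unadjusted p under 0.05, 53 members (2.88%) differed against 1.58% of all probes, 41 of them lower (2.22%, against 0.932%). Within untreated arrays the members' median position difference was 0.19, and within PNP arrays -0.04, where all probes had 0.08 and 0.04. Untreated replicate 3, the array with the fewest interval probes detected, is 1 of the 2 untreated arrays at position 1, and its part in this was not tested.

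Members were uneven along chromosomes. Merging member intervals within 10000 bp on either strand gave 1089 places, of which 612 held 1 member probe and 71 held at least 4, with 341 member probes in those. Of the 71, all tested probes had the same sign for PNP in 16, for position in 21 and for both comparisons in 9. These places were named after their values were seen, and no test was made of them. The most member probes, 10, lay at chr17:26911032-26917047 in 3 intervals and at chr1:138442536-138632310 in 10 intervals.

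The 10 probes of the chromosome 17 place spanned 6016 bp on both strands. Of these, 4 were above background on all 6 arrays and 6 had met the detection rule through the PNP group only, so their direction for PNP is in part set by the rule. Their PNP minus untreated differences were between 0.40 and 1.38, with a median of 0.82 and 10 of 10 positive, and 3 had an unadjusted p under 0.05. For 2 of them no untreated array was above background, and with these at their bound the median was 0.70. Their position differences were between 0.62 and 1.1, with 10 of 10 positive and 2 called. The 4 above background on all arrays had PNP differences between 0.40 and 1.15, with a median of 0.62, and 1 had an unadjusted p under 0.05. Position 2 held more of the PNP arrays, and the treatment median of these 4 was 0.52 within position 1 and 0.10 within position 2.

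The forward probe of that place with the smallest PNP p was A_30_P01027115 (chr17:26911397-26917047). Its untreated levels were 1.24, 1.75 and 0.93 and its PNP levels 2.73, 2.08 and 2.56, so that every PNP array was above every untreated array. The difference was 1.15 ± 0.28 (SE, limma adjusted p = 0.329), with 1.00 within position 1 and 0.90 within position 2. On the reverse strand of the same interval, A_30_P01025353, above background on 2 of 3 untreated arrays, was called for position, with 1.1 ± 0.19 (SE, limma adjusted p = 0.0326), and A_30_P01019886, above background on no untreated array, was at least 1.85-fold higher with PNP (limma adjusted p = 0.347).

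At chr19:5771425-5848475, 6 member probes in 5 intervals all had a positive PNP difference, between 0.29 and 1.01 with a median of 0.71, and 6 of 6 were positive for position. All 6 were above background on all arrays. The treatment median was 0.70 within position 1 and 0.11 within position 2. A_30_P01033068 (chr19:5795690-5797464, forward) had untreated levels of 0.42, 0.98 and 0.26 and PNP levels of 1.42, 1.52 and 1.39. The PNP arrays were nearly level while the untreated array at position 2 was the highest untreated one, and the difference was 0.89 ± 0.24 (SE, limma adjusted p = 0.347).

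Other places with 1 sign in both comparisons included chr7:6108350-6119600, with 5 of 5 probes higher in both, and chr12:16833551-16901804, with 6 of 6 lower in both. Of the 5 chromosome 7 probes, 2 met the rule through the PNP group only, so their direction for PNP is in part set by the rule. The 3 above background on all arrays had a median PNP difference of 0.04, with -0.11 within position 1 and -0.37 within position 2. At the chromosome 12 place the PNP differences were small, with a median of -0.13. A chromosome 18 place of 4 probes was higher in both, with a median PNP difference of 0.75 and 3 of 4 with an unadjusted p under 0.05, while 1 of the 4 was above background on all arrays. Over chromosome 18 as a whole, the 67 members had a median PNP difference of 0.18, the highest of any chromosome, with 10 higher and 2 lower at an unadjusted p under 0.05. Over all probes tested, 6.28% were higher and 3.1% lower at that threshold. The chromosome was named after its values were seen and was not tested. Its members include 3 at the 4-probe place that met the rule through the PNP group only. Members elsewhere on the chromosome did so too, among them a probe above background on no untreated array. The chromosome's median and counts are therefore in part set by the rule.

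Other places held both signs for PNP. At chr1:138442536-138632310, 7 of 10 PNP differences were positive. Of these 10 probes, 5 met the rule through the PNP group only, so their direction for PNP is in part set by the rule. The 5 above background on all arrays had a median PNP difference of -0.27, from -0.46 to 0.44, with -0.38 within position 1 and -0.27 within position 2. The 2 probes called for position there lay beside 8 uncalled ones, of which 7 had positive position differences and 1 a negative one, with a median of 0.22 and a range of -0.35 to 0.62. At chr17:3198868-3394643, 4 of 6 PNP differences were positive, with 4 having an unadjusted p under 0.05, and position differences of either sign. Of the 6 probes, 3 met the rule through the PNP group only. The 3 above background on all arrays had a median PNP difference of -0.21, from -0.22 to 0.97, and 1 had an unadjusted p under 0.05. Here A_30_P01024440 had untreated levels of 1.69, 1.80 and 1.33 and PNP levels of 1.33, 1.42 and 1.45, a difference of -0.21 ± 0.21 (SE), while A_30_P01032842 was above background on no untreated array and at least 1.29-fold higher with PNP (limma adjusted p = 0.349). At chr17:17315025-17507525, 9 probes had a median PNP difference of -0.03, from -0.23 to 0.82.

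**Figure D5:**
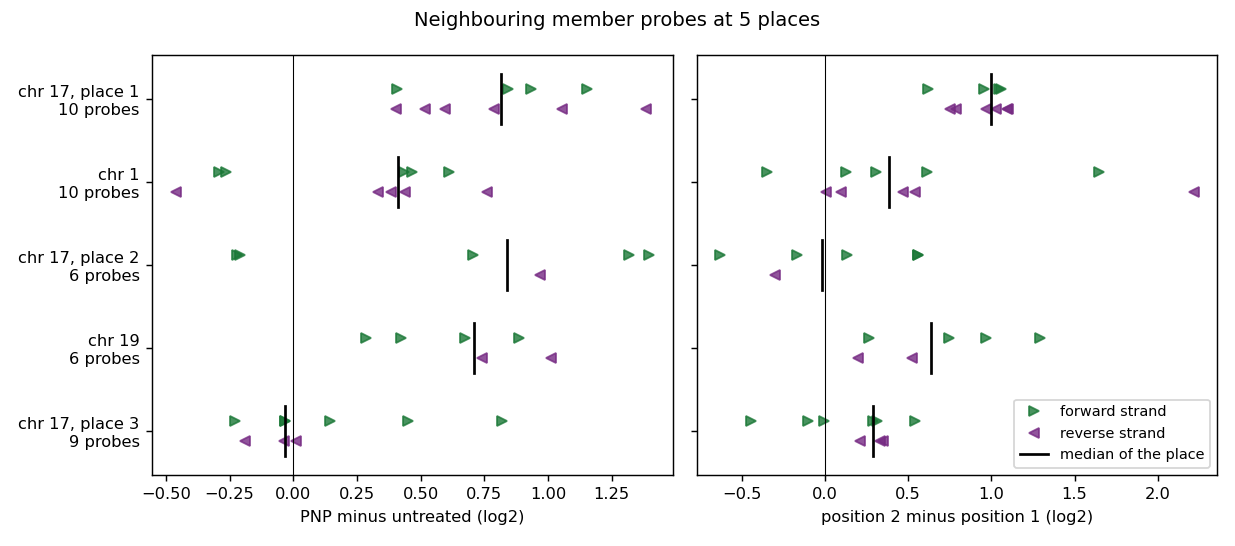
Each triangle is 1 member probe at 1 of 5 places, pointing right for forward and left for reverse strand, by its PNP minus untreated difference (left, log2) and its position 2 minus position 1 difference (right, log2), with a bar at the place's median. All 10 probes of the first chromosome 17 place (chr17:26911032-26917047) and all 6 of the chromosome 19 place lie right of 0 in both panels, while the chromosome 1 place, the second (chr17:3198868-3394643) and the third chromosome 17 place (chr17:17315025-17507525) lie on both sides of 0 in the left panel.

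Several probes in 1 interval did not always share detection. Of 316 intervals with at least 2 interval probes, 101 had all of them as members, 112 some and 103 none. At chr6:11996975-12037300, 4 probes on both strands all had lower signal at position 2, with a median of -0.72 and 0 called. At chr7:6108350-6119600, 5 reverse probes all had higher signal there, with a median of 0.84 and 1 called, A_30_P01018349 at 0.84 (limma adjusted p = 0.04995). Its position 1 levels were -1.88, -1.99 and -2.10 and its position 2 levels -0.99, -1.29 and -1.44, and the 2 sets did not overlap.

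The array prints 5 members in 10 spots each, which shows the error of a single spot. The SD between spots of an array was 0.05 to 0.16 on the log2 scale, and the SD between arrays of a group was 0.05 to 0.49. A_30_P01020514 (chr17:39983902-39985688, forward) had a spot SD of 0.06 and array SDs of 0.49 untreated and 0.39 with PNP. Its untreated levels were 6.45, 6.81 and 5.85 and its PNP levels 6.01, 5.91 and 6.63, so the spread between arrays was far larger than that within one. In A_30_P01026611 (chr6:116123643-116124550, forward), the SD was 0.06 between spots and 0.05 and 0.07 between arrays. An array's level is a mean over the probe's spots, so the SD of a single spot is not the error of that level.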

How the data were processed

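The deposited intensity values are Agilent Feature Extraction's processed signals, background-subtracted and not scaled between arrays (version 11.5.1.1 per the file headers, 10.7 per the submitters' processing notes). The authors' deposited log2 table of the same arrays correlated with those signals across probes at 0.998 or above. It had a column median of 4.75, and was used as an alternative only. Per the labels' protocols, TRIzol was used for extraction and Cy3 as the dye.

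Here, a probe's level is the mean over its spots of the log2 processed signal, leaving out outlier-marked spots, less the 75th percentile of its array. Probes were the unit. limma 3.58.1 in R 4.3.3 (lmFit, eBayes, two-sided, Benjamini-Hochberg) was fitted over the 28204 probes that met the detection rule and had a value on all 6 arrays. No spot was saturated. Groups came from the labels, and slide and position from the file headers.

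Members named are the 8 highest by mean level, the 10 with the smallest p each way for PNP and 6 each way for position, the longest and shortest intervals, up to 6 multi-probe intervals and 6 overlapping opposite-strand pairs, and those just inside, just outside and dimmest. Probes on chromosome 18 are not named, and stand in all counts. A probe beyond these was named after its values were seen. Members, lists and tests were chosen with earlier results of these data known.

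The fits were tested on simulated arrays with 200 changed probes among 28204. The spreads were those left after treatment and position were fitted, so for PNP, tested without position, recovery may be overstated. For PNP, 1.6% of changes of 0.5, 46.2% of 1, 99.0% of 2 and 99.8% of 3 were recovered. For position the shares were 0.6%, 25.4%, 97.4% and 99.8%. About 10.2 and 10.3 false calls were made per run, over 10 runs each. Alternatives were other scalings and background corrections, filters, variance models, blocks, array weights, within-position fits and leaving out each array. Keeping outlier-marked spots, and other scalings of the interaction, were added after the data were seen.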

Additional observations from a re-analysis of the deposited data

How the results depend on the processing

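Members called for PNP numbered 0 in the reported fit and in 23 of 26 alternatives, and 103 with array weights, 57 within position 1 and 10 within position 2 (5.33%, 2.27% and 0.55% of all probes), where a single array stands for a group and is assumed to vary like the others. Their median difference of -0.04 moved to 0.10 with slide as a fixed block, which rests on slide 2, and to -0.17 within position 2, and was 0.02 with the percentile taken over probes above background on all arrays. It was between -0.14 (without untreated replicate 3) and 0.02 with an array left out. The 58 members called for position became 0 with no filter, 95 with a robust variance trend, 402 with array weights, 38 without the treatment term, 168 with slide in place of treatment and 22 within PNP arrays. With an array left out they were 0 to 106. Normexp gave 83 (4.5%, against 6.61% of all probes) and quantile normalization 75 (4.07%, against 4.39%). Median centring gave 65 (3.53%, against 3.74%) and the authors' values 71 (3.85%, against 4.14%). The cause of these shifts was not tested. Unadjusted counts, over alternatives with more than 1 array in each group, ran from 62 to 217 higher with PNP and 21 to 337 lower. The members' shares at those ends were 4.05% and 11.8% higher, against 5.14% and 13.3% of all probes. Lower, they were 1.14% and 18.3%, against 1.03% and 17.1%. For position the counts ran from 57 to 358 higher (3.09% and 19.4%, against 4.21% and 20.1%). Downward they ran from 70 to 295 (3.8% and 16%, against 5.31% and 18.3%).

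Deviations of arrays with the same replicate number in the labels correlated at -0.42, -0.56 and -0.44. Same-numbered arrays always lay at opposite positions, so these values cannot tell whether the samples were paired. A replicate block gave 0 members called for PNP, as over all probes, and 38 for position (2.06%, against 2.22% of all probes). The 20 probes named for the smallest p for PNP and 12 for position were chosen on these same arrays. A steady direction therefore follows in large part from that choice and is no separate support. None of these probes changed direction under any alternative run. Probes named for other reasons with differences near 0 did: A_30_P01026759 (0.01 for PNP) had 0.15 within position 1 and -0.38 within position 2, and A_30_P01021866 (0.02) had 0.19 and -0.19. Counting as detected the probes with a signal significantly above background gave 2931 members, 65.9% of interval probes and 65.8% of all probes. At this number of arrays, changes of 0.5 on the log2 scale were rarely recovered in the simulated arrays.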
